A study of Ovis aries with 8 samples.

Results

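The interferon response genes of the fetal lung were followed on a sheep expression array. Gene names and interferon terms in the probe descriptions picked 9 of 15008 probes in all, of which 8 are reported. These 8 probes stand for 7 genes, as the files name them: ISG15 (listed under its older sheep name ISG17), MX1, MX2, the interferon-induced protein 1-8U, and the interferon regulatory factors IRF1, IRF2 and IRF3. IRF3 had 2 probes and each other gene 1. All of them were well above background on all 8 arrays. RNA came from lungs of twin sheep fetuses (Ovis aries) at about 130 days of gestation, where term is 147 days. In each of 4 sets of twins, 1 fetus received aldosterone, 0.2 mg over 48 hours, and its twin received vehicle, with infusions begun 5 days after surgery. The 4 aldosterone and 4 control lungs were hybridised to 1 array each, and all arrays lay on 1 slide. Per the labels, infusions in this study followed surgery, and no breed or sex is given for any group. The comparison asks which transcripts differ in late-gestation lung after 48 hours of raised aldosterone, here among genes of the antiviral response.

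Interferons are secreted by cells that sense viral or microbial nucleic acid. Type I interferons and interferon gamma bind separate receptors and act through JAK kinases and STAT transcription factors. The type I signal switches on antiviral effectors such as ISG15, a ubiquitin-like protein that is coupled to other proteins, and the dynamin-like GTPases MX1 and MX2, which block viral replication. Interferon regulatory factors are the transcription factors of the system: IRF3 is present before infection and is activated by phosphorylation, whereas the gene of IRF1 is itself induced by interferon gamma and by NF-kB. In sheep, ISG15 and the MX genes are also known as responses of the uterus and blood to interferon tau, the pregnancy signal of the early embryo.

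The probes that carry the values below are shown because each value rests on a single probe of 60 bases. For ISG15 and IRF1 the whole probe is given, for MX1 and MX2 its last 30 bases, and for IRF3 the first 30 of the 37 bases that its 2 probes share. Capitals mark AATAAA, the letters of the common polyadenylation signal.
ISG15: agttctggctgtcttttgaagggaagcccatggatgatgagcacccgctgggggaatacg
IRF1: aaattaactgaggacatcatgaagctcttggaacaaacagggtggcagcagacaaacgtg
MX1: caatttgtaatacagttctttctaccagaa
MX2: tataaacttcatattctAATAAAtcacttc
IRF3: tccttaaggctgtttatccgcccgtgcaag
AATAAA, searched on the strand as printed, occurred in 2 of the 8 probes, those of MX2 and 1-8U, and in 5.63% of all probes on the array. MX1 and MX2 are neighbouring genes on chromosome 1 of the RefSeq sheep assembly ARS-UI_Ramb_v3.0, with 0 listed genes between them, but their probes share no stretch longer than 5 bases. No probe outside those the names and terms picked shared a stretch of 20 bases with any of them. The array files give the probes no genome position, so none is stated.

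None of the 8 interferon response probes differed between aldosterone and control lungs in limma's moderated test. ISG15, MX2 and IRF1 had the widest gaps between group means, all 3 lower after aldosterone, and in each the control lung of replicate 4 was the highest of the 8 lungs. Without that lung MX2 and IRF1 had higher means after aldosterone. What set ISG15, MX1, MX2 and IRF1 apart was their spread from lung to lung, up to 23.3-fold, while IRF2, IRF3 and 1-8U varied by less than 2-fold. Levels below are log2 intensities relative to the 75th percentile of the same array, so they can be compared between lungs for a given probe but not between probes.

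ISG15 (probe A_70_P030156) stood at 0.78, 3.30, 0.27 and 3.85 in control replicates 1 to 4 and at 2.12, 2.35, 0.76 and -0.69 in aldosterone replicates 1 to 4. The groups overlapped throughout, and both extremes lay in the lungs numbered 4, where the aldosterone lung was 23.3-fold below the control lung. Means were 2.05 ± 1.79 in controls and 1.13 ± 1.40 after aldosterone (SD, n = 4 each), a log2 difference of -0.92 ± 0.94 (SE, 95% interval -3.04 to 1.21, unadjusted p = 0.354 in limma). Of the same-numbered pairs, 2 were higher and 2 lower after aldosterone. Without the control lung of replicate 4 the difference was -0.32 ± 0.92. Within the first row of the slide, which held replicates 1 and 2, it was 0.19, and within the second row, which held replicates 3 and 4, it was -2.03.

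MX1 (A_70_P039536), the GTPase that acts against influenza and other RNA viruses, stood at 2.21, 2.96, -0.22 and 1.94 in controls and at 2.66, 2.54, 1.10 and 0.27 after aldosterone. The 3 lowest lungs were both aldosterone lungs of the second slide row and the control lung of replicate 3, and the groups overlapped. The log2 difference was -0.08 ± 0.74 (95% interval -1.76 to 1.60, unadjusted p = 0.919 in limma). Its direction turned when any of 4 single lungs was left out, with values up to 0.38.

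MX2 (A_70_P039716), the second sheep GTPase of the family, stood at -2.06, 0.33, -1.60 and 1.62 in controls and at -1.68, 0.42, -1.24 and -1.46 after aldosterone. Both lungs numbered 2 were high, together with the control lung of replicate 4, and the other 5 lay between -2.06 and -1.24. The log2 difference was -0.56 ± 0.81 (95% interval -2.41 to 1.28, unadjusted p = 0.507), although 3 of the 4 pairs were higher after aldosterone, by 0.39, 0.09 and 0.36. The fourth pair was lower by 8.49-fold. Without the control lung of replicate 4 the difference was 0.12 ± 0.68. It was 0.24 within the first slide row and -1.36 within the second.

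The protein 1-8U belongs to the small interferon-induced transmembrane proteins that hinder virus entry. Its probe (A_70_P016041), described from a bovine match, stood at 5.66, 6.10, 5.83 and 6.29 in controls and at 5.34, 6.02, 5.87 and 5.85 after aldosterone, with a log2 difference of -0.20 ± 0.20 (95% interval -0.66 to 0.25, unadjusted p = 0.339). The difference was -0.059 without the aldosterone lung of replicate 1, -0.095 without the control lung of replicate 4 and -0.31 without the control lung of replicate 1. A second probe (A_70_P007346), with no interferon term in its description, shares a contig with it in the array's annotation. Whether that probe reads the 1-8U transcript was not checked. It gave -0.12 ± 0.23 and was lower in the aldosterone lung of 4 of 4 pairs, by 0.06 to 0.19. Of all probes tested, 5.64% were lower in all 4 pairs. Neither the 1-8U probe nor this contig probe varied as ISG15 did: the highest and lowest lungs differed by 1.94-fold and 1.81-fold.

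**Figure D1:**
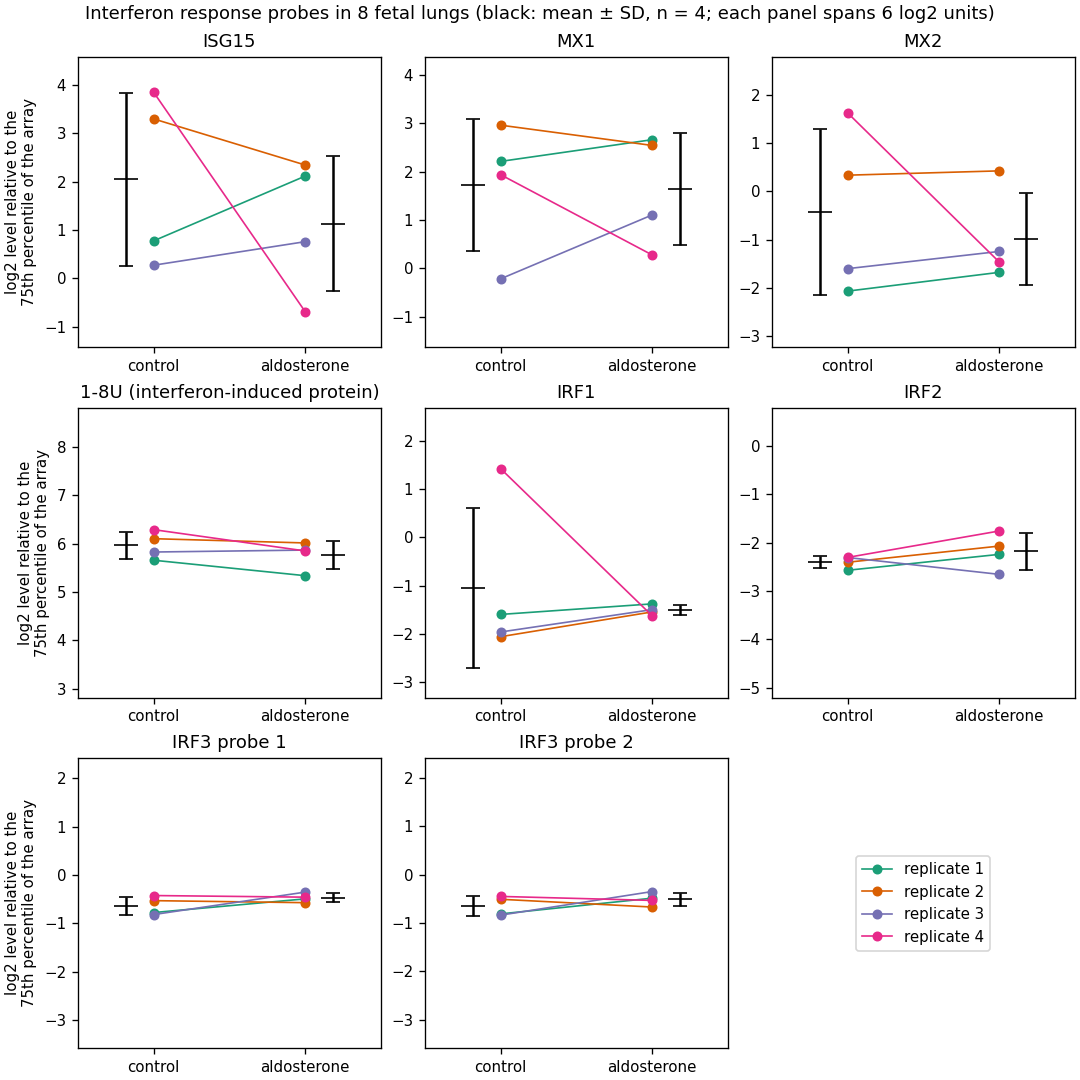
Log2 level relative to the array's 75th percentile (vertical axes, all panels drawn to the same span) of the 8 interferon response probes in control and aldosterone lungs. Coloured lines join lungs with the same replicate number, and black marks give the mean ± SD of 4 lungs. The control lung of replicate 4 stands at 1.42 for IRF1 against -2.06 to -1.38 in the other 7 lungs, and the ISG15 lines cross from 3.85 to -0.69 in replicate 4.

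IRF1 (A_70_P050981), the regulatory factor that is induced in its own right, stood at -1.60, -2.06, -1.96 and 1.42 in controls and at -1.38, -1.55, -1.50 and -1.63 after aldosterone. One lung set the group's spread: the control of replicate 4 was 8.09-fold above the next control and 6.95-fold above the next lung of either group, whereas the 4 aldosterone lungs agreed within an SD of 0.10. The mean difference was -0.46 ± 0.69 (95% interval -2.03 to 1.10, unadjusted p = 0.52 in limma), while the medians differed by 0.26 in the opposite direction. Without the control lung of replicate 4 the difference was 0.36 ± 0.16 (unadjusted p = 0.0523 and adjusted p = 0.861 in limma), with 3 controls at -2.06 to -1.60 and 3 of the 4 aldosterone lungs above the highest of them. It was 0.37 within the first slide row and -1.29 within the second.

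IRF3, the factor that waits in the cytoplasm for a signal from nucleic acid sensors, was flat by comparison. Its brighter probe (A_70_P068121) stood at -0.78, -0.53, -0.82 and -0.43 in controls and at -0.49, -0.57, -0.35 and -0.46 after aldosterone. The log2 difference was 0.17 ± 0.14 (95% interval -0.15 to 0.48, unadjusted p = 0.258), with 2 pairs higher and 2 lower. The difference was 0.12 within the first slide row and 0.22 within the second. The overlapping second probe (A_70_P068122) gave 0.14 ± 0.15 and is no separate measurement, since the 2 share 37 bases.

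Another probe of the IRF3 contig (A_70_P050746), unnamed in the files and picked by no name or term, reads other bases. It stood at -2.16, -2.01, -2.26 and -2.13 in controls and at -1.85, -1.78, -1.95 and -1.88 after aldosterone, so the 2 groups did not overlap and the aldosterone lung was higher in 4 of 4 pairs. The log2 difference was 0.27 ± 0.12 (unadjusted p = 0.05, adjusted p = 1.00 in limma). A fit blocked on the replicate pairs gave an unadjusted p of 0.0396 and an adjusted p of 0.878 in limma. Groups lay apart in this direction for 0.855% of all probes, and 7.67% were higher in all 4 pairs. This probe shares a contig with IRF3 and was added after its values were seen. The shares and p-values therefore do not weigh it as a probe picked in advance. The contig was not checked against a transcript.

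IRF2, a factor that competes with IRF1 for the same DNA sites (A_70_P030016), stood at -2.57, -2.41, -2.31 and -2.31 in controls and at -2.24, -2.07, -2.66 and -1.76 after aldosterone. The highest and the lowest lung were both aldosterone lungs, and 3 of 4 pairs were higher after aldosterone. The log2 difference was 0.22 ± 0.20 (95% interval -0.23 to 0.66), with an unadjusted p of 0.298 in limma. Leaving out aldosterone replicate 4 gave 0.075, and leaving out aldosterone replicate 3 gave 0.37.

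Over the whole array 0 of 12170 probes kept for testing passed an adjusted p of 0.05 in limma, which is 0% of them, and 1.87% had an unadjusted p under 0.05 (1.27% higher and 0.6% lower after aldosterone). With the replicate number as a block, 4.43% had an unadjusted p under 0.05 in limma and 0% an adjusted one. Among the 8 interferon response probes 0 passed either threshold, with or without the replicate number as a block. Their unadjusted p in limma ran from 0.258 to 0.919, the mean was above that of controls for 3 and below it for 5, and their median log2 difference was -0.14 against 0.01 for all kept probes. A higher mean was seen in 51.5% of all kept probes. In 0 of the 8 did the 2 groups lie apart, against 1.31% of all probes. Since the RNA is from bulk lung tissue, fewer cells of a type and less RNA per cell cannot be told apart in any of these values.

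**Figure D2:**
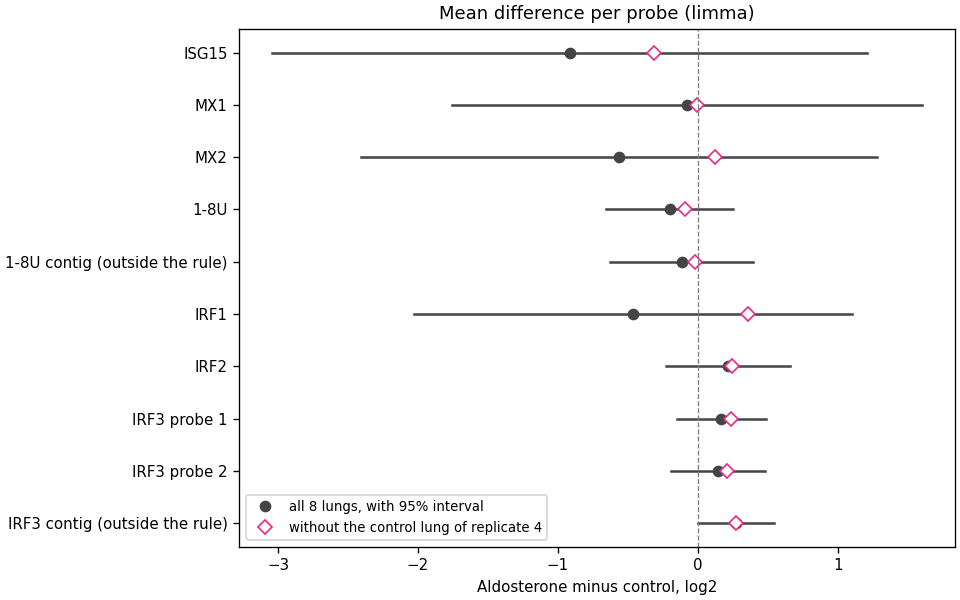
Mean aldosterone minus control difference on the log2 scale (horizontal axis) for the 8 interferon response probes and the 2 contig probes, with limma's 95% interval over all 8 lungs (circles and bars) and the difference without the control lung of replicate 4 (open diamonds). The IRF1 diamond lies at 0.36 and its circle at -0.46, and the intervals of ISG15, MX1, MX2 and IRF1 are the widest.

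Large differences between lungs, rather than between groups, were the main feature of 4 of these genes. The highest and lowest lungs differed by 4.54 log2 units for ISG15, 3.69 for MX2, 3.48 for IRF1 and 3.18 for MX1, while the median over all kept probes was 0.83. A range at least as wide was found in 0.592%, 1.27%, 1.63% and 2.26% of all probes, in that order. At the other end, the ranges of the brighter IRF3 probe and of 1-8U, 0.46 and 0.95, were reached by 86.7% and 39.5% of probes. Within controls the SD of ISG15, MX2, IRF1 and MX1 was between 1.36 and 1.79, and the median control SD over all probes was 0.26. After aldosterone their SDs were 1.40, 0.96, 0.10 and 1.16, in that order, where the median over all probes was 0.29. The spread of IRF1 thus came from 1 lung, since its control SD was 0.24 without replicate 4.

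**Figure D3:**
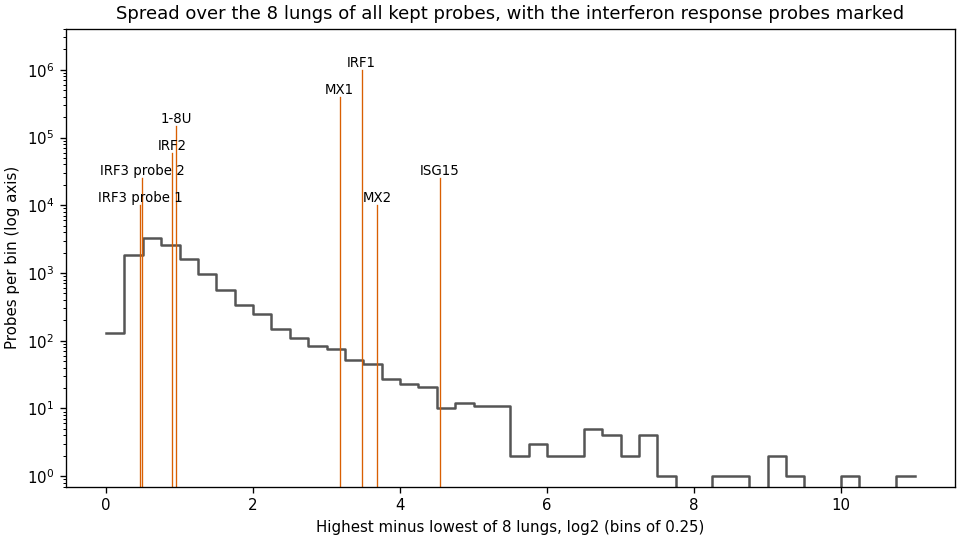
Number of kept probes (vertical log axis) by the log2 difference between their highest and lowest lung (horizontal axis, bins of 0.25), with vertical lines at the 8 interferon response probes. ISG15 at 4.54, MX2 at 3.69, IRF1 at 3.48 and MX1 at 3.18 lie in the right tail, and the other 4 probes lie within 1 log2 unit.

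The control lung of replicate 4 was the highest of all 8 for 4 of the 8 probes, ISG15, MX2, 1-8U and IRF1, and the lowest for 0. Over all kept probes it was the highest for 12.5%. Among kept probes with a value on every array it was the lowest for 17.0%, the largest such share of any lung. Its excess over the next lung was 2.80 log2 units for IRF1, 1.20 for MX2 and 0.55 for ISG15, and for MX1 it was below the control lung of replicate 2 by 1.02. An excess as large as that of IRF1 was found for 12 of 12170 probes, or 0.0986%. The same array had the largest share of spots well above background, 85.4% against 76.5% to 81.6% on the other 7, and the part this plays in its high values was not tested.

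The signalling genes upstream of these effectors were sparsely covered, and none of those measured passed the threshold in limma. Of the list of JAK-STAT signalling genes 0 were measured, where a gene counts only if a kept probe was given its name. The receptor chains of the type I interferons were nearly constant, with log2 differences of 0.07 ± 0.12 for IFNAR1 and 0.03 ± 0.13 for IFNAR2 and ranges of 0.27 and 0.36 over the 8 lungs.

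Interferon gamma itself (IFNG), the product of T and natural killer cells, had a log2 difference of -0.62 ± 0.32 (unadjusted p = 0.0842 in limma) on a probe near background that was well above it on 7 arrays. Without the aldosterone lung of replicate 1 its difference was -0.29, and with normexp and quantile normalization -0.12. Its other probe and the probe of an interferon alpha (named IFN1 in the files) were each well above background on 1 array, a control. Of 7 measured sensors and adaptors, IRF3 included, the mean was above that of controls in 4 and below it in 3. MYD88, the adaptor of most Toll-like receptors, gave 0.27 ± 0.16, the endosomal receptor TLR7, well above background on 6 arrays, 0.23 ± 0.28, and TRAF3, a ubiquitin ligase upstream of IRF3, -0.11 ± 0.15.

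Besides ISG15 and the MX genes, the list of type I effectors held 2 measured genes. The 1-8U probe was given no gene symbol and is not counted in this list. RTP4, a chaperone of receptors that is strongly induced by interferon, stood at 1.86, 2.84, 0.75 and 2.67 in controls and at 2.56, 2.61, 1.34 and 0.93 after aldosterone, with a log2 difference of -0.17 ± 0.54. Its 3 lowest lungs, the control of replicate 3 and the aldosterone lungs of replicates 3 and 4, were also the 3 lowest for MX1. They lay in the second row of the slide, and row and replicate number cannot be told apart. APOBEC3F, a cytidine deaminase that attacks retroviruses, gave 0.18 ± 0.18. The 5 effectors of this list had 1 higher and 4 lower means and a median difference of -0.17, and 0 passed. That median turned to 0.10 without the control lung of replicate 2, to 0.044 without that of replicate 4 and to 0.055 and 0.0043 without the aldosterone lungs of replicates 4 and 3. It was -0.72 without the control lung of replicate 3 and -0.40 and -0.42 without the aldosterone lungs of replicates 1 and 2.

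The list of interferon gamma targets had 1 higher and 4 lower means of 5, a median difference of -0.45 and 0 genes past the threshold. Each of its 5 genes, IRF1 itself among them, was highest in the control lung of replicate 4. ICAM1 is also counted in the immediate early and NF-kB list below. ICAM1, an adhesion molecule for leukocytes, stood there at 3.04 against 0.43 to 0.85 in the other 7 lungs, and its log2 difference was -0.45 ± 0.52. CXCL10, the chemokine named for its induction by interferon gamma, stood at -1.15, -0.28, -1.17 and 0.88 in controls and at -0.89, 0.02, -2.07 and -1.99 after aldosterone, and gave -0.80 ± 0.58. NOS2, the inducible nitric oxide synthase, gave -0.11 ± 0.46. Without the control lung of replicate 4 the median of this list was 0.29.

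For antigen processing and MHC class I, 2 of 3 genes had a higher mean and 0 passed. PSMB8, an interferon-inducible subunit of the proteasome, gave 0.24 ± 0.17, the class I chain OVAR 0.22 ± 0.35, and PSME2, a subunit of the proteasome activator, -0.05 ± 0.15. OVAR belongs to a multigene family whose members a single probe may not separate. The list of immediate early and NF-kB response genes had lower means after aldosterone for 12 of 12 genes, with a median of -0.56, and 11 of the 12 were highest in the control lung of replicate 4. None passed. The neutrophil chemokine CXCL8 gave -1.45 ± 1.23, TNF -0.98 ± 1.02 and the prostaglandin synthase PTGS2 -0.76 ± 0.41. Without that lung the median of the list was 0.17.

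Likeness of profile was measured as the root mean square difference over the 8 lungs between log2 values centred on their own mean, across 698 named genes outside the picked probes. It describes these 8 lungs and carries no test. Closest to IRF1 were P-selectin (SELP, 0.15), an adhesion receptor of activated endothelium, ICAM1 (0.27), the cytokine IL1A (0.28), the small GTPase RHOB (0.36) and the NF-kB inhibitor NFKBIA (0.45), where the median over genes was 1.07. In all 5 the control lung of replicate 4 was the highest. The choice largely fixed this, since they were picked for likeness to IRF1, which that lung sets apart. The excess over the next lung was 8.18-fold for SELP, 4.55-fold for ICAM1, 6.70-fold for IL1A, 11.3-fold for RHOB and 6.10-fold for NFKBIA.

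Closest to ISG15 were CXCL10 (0.76), RTP4 (0.81), the fatty acid synthesis enzyme ACACA (1.08), the thyroid hormone carrier TTR (1.13) and PTGS2 (1.14), against a median of 1.51. CXCL10 (0.67) was also first for MX2, followed by the immediate early factor JUNB (0.70), the interleukin antagonist IL1RN (0.76), the C-type lectin CLEC6A (0.76) and the gene LOC100101238 (0.78), against a median of 1.25. Among the members themselves, ISG15 lay nearer to MX2 (0.85) and MX1 (0.96) than to IRF1 (1.25), and IRF1 lay 0.97 from MX2 and 1.42 from MX1. IRF1 lay 0.94 from 1-8U, a probe of narrow range. MX1 lay 1.13 from 1-8U and 1.29 from MX2. These distances also depend on how widely each gene varies, so they do not group the members.

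**Figure D4:**
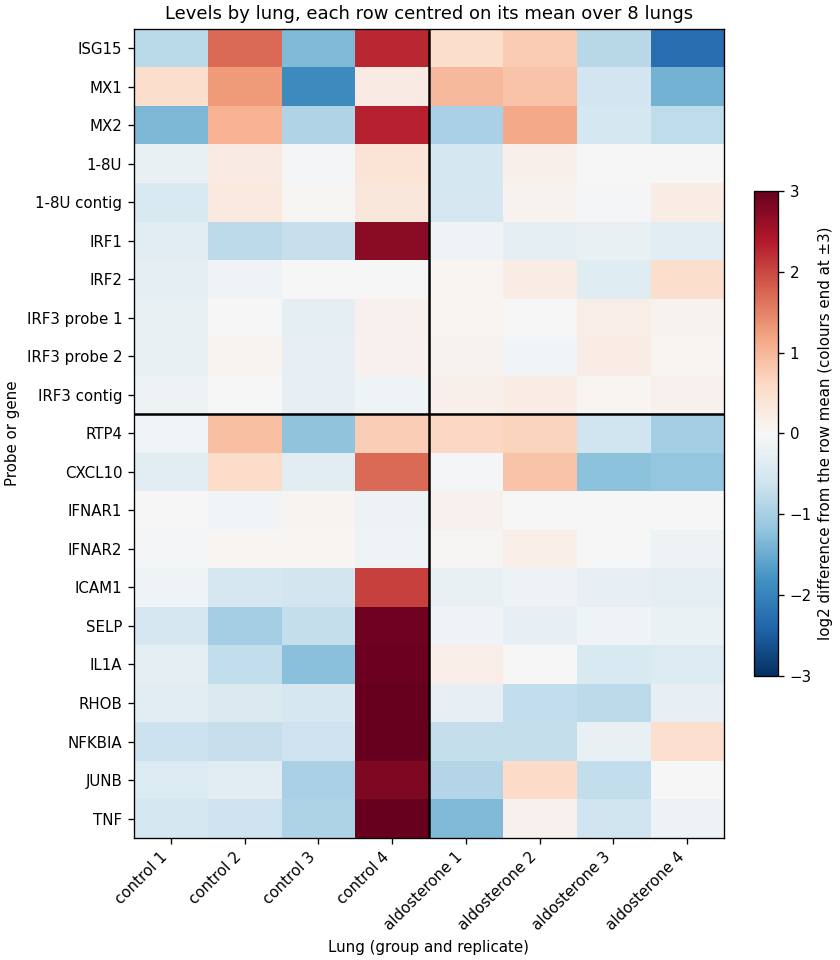
Centred log2 levels (colour, ending at 3 units either way) of the interferon response and contig probes (above the line) and of pathway genes and genes nearest in profile (below it) in the 4 control and 4 aldosterone lungs. The column of the control lung of replicate 4 stands at 1.71 or more for ISG15, MX2, IRF1, CXCL10 and from ICAM1 down. RTP4 and MX1 share low values in the control lung of replicate 3 and the aldosterone lungs of replicates 3 and 4.

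Tissue and cell markers place these values. The surfactant genes SFTPA1, SFTPB and SFTPC were well above background on all 8 arrays, as the label of lung requires. In the control lung of replicate 4 the mean centred level was 0.23 for 5 macrophage and monocyte genes, where the other lungs ran from -0.54 to 1.06 and the aldosterone lung of replicate 2 was highest. Of these 5, FCGR1A, also on the list of interferon gamma targets, was the only gene highest in the control lung of replicate 4. This list is therefore not separate from the interferon genes. In the same lung the mean centred level was -0.39 for 5 neutrophil and myeloid granule genes, where the control lung of replicate 2 was highest at 1.63. It was -0.60 for 6 T and natural killer cell genes, the lowest of the 8 lungs. The single B cell gene measured, CR2, had a centred level that was high in both lungs numbered 4, at 2.11 in the control and 2.28 in the aldosterone lung against -1.31 to -0.18 in the other 6. Beside the group comparison, the macrophage list had 4 higher and 1 lower means after aldosterone with 0 past the threshold. The granule list had 5 of 5 lower with a median of -1.07, 0 past the adjusted and 3 under the unadjusted threshold, where 0.6% of all probes were lower at an unadjusted p under 0.05. Without the control lung of replicate 2 the median of the granule list was -0.68. The T and natural killer cell list had 4 higher of 6. The part of these cells in the interferon values was not tested. The T cell gene CD4 was too dim to be kept.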

How the data were processed

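The deposited scanner files hold the intensity of each spot on a linear scale. Feature Extraction 10.1.1.1 (Agilent) produced them, per the file headers, with a spatial surface subtracted as background, multiplicative detrending on, and surrogates used for dim spots. Each lung's label is 1-colour (Cy3) from 450 ng of total RNA. The table the authors deposited for the series is on a log2 scale, equal to log2 of the same array's processed intensity less a constant, with a column median of 0, over 12762 spots.

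Here log2 processed intensity less the array's 75th percentile was taken over 15208 non-control spots. Spots flagged as outliers were left out (74 values), spots of a probe averaged, and a probe kept where 4 or more of the 8 arrays had it well above background, which left 12170. Dim and bright probes alike are measured relative to the array as a whole. Groups were compared with limma 3.58.1 in R 4.3.3 (lmFit and eBayes, group alone, two-sided, Benjamini-Hochberg over kept probes, threshold 0.05); the code was tested on simulated data. The number of arrays limits the precision. In the main fit, standard errors, intervals and p-values rest on the spread among fetuses within each group and ignore the pairing of same-numbered lungs. Blocking on these pairs lowered the median standard error from 0.201 to 0.144 over all kept probes. Over the 8 interferon response probes it fell from 0.445 to 0.316, although that of the second IRF3 probe rose from 0.147 to 0.151. Names came from RefSeq accessions, gene IDs, symbols or synonyms and 1081 kept probes had one; a gene's brightest probe stands for it in lists.

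The members, lists and tests were chosen with earlier results of these data known. Some items, 1 of the 9 picked probes among them, are not reported here. Named are the other 8 probes, up to 4 genes per pathway list by smallest p, and the 5 genes nearest in profile to ISG15, MX2 and IRF1; the contig probes were added after their values were seen. After group means were removed, same-numbered lungs correlated at 0.446, 0.275, 0.28 and 0.538 across 12148 probes and others at -0.449 to 0.203. Every same-numbered pair exceeded 0.1, but so did aldosterone 1 with control 2 (0.203) and aldosterone 3 with control 4 (0.11). Equal numbers were read as twins, which the labels do not state, and same-numbered lungs also lay in the same slide row. Alternatives were normexp (offset 50) with quantile normalization, median centring, the authors' log2 table, 2 other filters, the replicate block, array weights, the slide row and leaving out each lung.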

Additional observations from a re-analysis of the deposited data

Results flagged for a closer look

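IRF1 in the control lungs stood out because of 1 sample. The control lung of replicate 4, at 1.42, lay 3.02 log2 units above the next control, and this gap was 0.868 of the whole range of the group, above Dixon's 95% critical value for 4 samples. Chance gives such a gap in about 1 in 20 groups, and 20 groups were looked at (10 probes, 2 groups each), of which 1 was marked. In the groups of ISG15, MX2 and MX1 the gap did not reach that value.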

How the results depend on the processing

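No interferon response probe passed an adjusted p of 0.05 under any alternative run, nor did any other probe. The differences of IRF2, both IRF3 probes and the 1-8U probe kept their sign under all of them; that of IRF3 ran from 0.11 to 0.24. ISG15 turned to 0.19 in slide row 1 alone and, in a choice made after seeing the data, to 0.29 without both lungs numbered 4, with or without the block. MX2 gave 0.24 and 0.28 in those settings and IRF1 0.37 and 0.40, MX2 0.12 and IRF1 0.36 without control replicate 4, and IRF1 0.18 with array weights. MX1 gave 0.015 in row 1 and 0.45 without both lungs numbered 4. Over single lungs left out the ranges were -1.51 to -0.31 for ISG15, -1.11 to 0.12 for MX2 and -0.80 to 0.36 for IRF1. They were -0.72 to 0.38 for MX1, 0.075 to 0.37 for IRF2 and -0.31 to -0.059 for 1-8U. For the probe that shares the 1-8U contig the range was -0.28 to 0.035. Without both lungs numbered 4 and with the block, 1 interferon response probe, that of IRF1, had an unadjusted p under 0.05 in limma, at 0.0404. With the replicate block ISG15 gave -0.92 ± 0.92, and the block moved none of the 8 interferon response probes across the adjusted or the unadjusted threshold. All probes with an unadjusted p under 0.05 in limma numbered 228, and 1282 with array weights, 539 with the replicate block, 387 in row 2 alone, 343 with the row as a block, 465 without both lungs numbered 4 with the block, and 143 to 422 over single lungs left out. Of the 228, 68% were higher, against 52.5% with median centring and 43.3% in the authors' table. The median changed sign under some alternative in 6 of 8 pathway lists and 7 of 11 marker lists. The causes were not tested.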
